A study of Mus musculus with 4 samples.

Results

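The transcripts of 8 apolipoprotein genes were followed in the 2 fractions of mouse skeletal muscle. These were Apoa1, Apoa2, Apob, Apoc1, Apoc3, Apod, Apoe and Apoh, 8 of the 16472 genes in the table. They were chosen by name from the values of this same comparison and of the replicates, so that their levels, their differences between the fractions and their replicate ratios are descriptions without a test. All 4 libraries came from wild-type mice. The 2 libraries of isolated mitochondria were set against 2 libraries whose treatment label names tissue from which mitochondria were removed and whose titles, like a figure legend of the study, name total muscle. The latter are called remaining tissue here after the treatment label, and since these sources differ, whether they hold whole or depleted muscle is not settled. The methods give a backcross to 129SV for the mutant line and its wild-type mice, without saying whether those mice were used here. Age and sex were not given in the sources used here, nor whether the 2 replicates of a fraction, or libraries with the same number, came from separate animals, so that p-values may measure technical spread alone. The methods describe the isolation for heart, with homogenization, differential centrifugation and a treatment of mitochondria with digitonin and RNase A before RNA extraction, and do not say whether muscle was handled alike. The fragmentation time of library preparation was adapted to mitochondrial RNA, so that its effect and that of the fraction cannot be told apart.

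Apolipoproteins are the protein parts of lipoproteins, the particles that carry triglycerides and cholesterol in plasma. Hepatocytes, and for some members enterocytes, build the particles around apolipoprotein B and secrete the apolipoproteins of HDL. Skeletal muscle is mainly a consumer. It takes up fatty acids that lipoprotein lipase releases from the particles at the capillary wall. By textbook sites of expression the members were grouped as liver-restricted (Apoa1, Apoa2, Apob, Apoc3 and Apoh, 5 genes) or widely expressed (Apoc1, Apod and Apoe, 3 genes). Apoe and Apoc1 are made by hepatocytes and also by macrophages, and Apod mainly outside the liver by fibroblasts and glia.

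The members lie on 6 chromosomes of GRCm38. Apoa1 (chromosome 9, 46228580 to 46230466, plus strand, 4 exons) and Apoc3 (46232933 to 46235636, minus strand, 4 exons) are neighbours 2466 bp apart, with Apoa4 a further 5059 bp on and Apoa5 25173 bp beyond it. Apoe (chromosome 7, 19696109 to 19699188, minus strand, 4 exons) and Apoc1 (19689481 to 19692660, minus strand, 3 exons) lie 3448 bp apart. Apoa2 (chromosome 1, 171225054 to 171226379, plus strand, 4 exons), Apob (chromosome 12, 7977648 to 8016835, plus strand, 29 exons), Apoh (chromosome 11, 108343354 to 108414396, plus strand, 8 exons) and Apod (chromosome 16, 31296192 to 31314808, minus strand, 6 exons) stand alone. Apoh overlaps Prkca on the opposite strand and Gm11656 on its own, though their transcripts shared no stretch of 50 nt or longer with it. Its counts are uncertain where shorter stretches are shared or where strand was not used. In sequence, 240 other genes matched Apod over 50 nt or longer with an identity of 90% and above, 2 of them at 95% and above (the longest 62 nt), so that its counts carry some uncertainty, and 0 genes matched the other 7 members.

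The bases upstream of 4 members are shown because the transcripts fell into 2 patterns over the libraries, with Apoa1 and Apob in one and Apod and Apoe in the other. The windows are those of the RefSeq promoter table (GRCm38.p6), which matched 6 of the 8 members, limited to the bases before the annotated gene start. They are chr9:46228380-46228579 (plus strand) for Apoa1, chr12:7977427-7977647 (plus strand) for Apob, chr16:31314809-31315058 (minus strand) for Apod and chr7:19699189-19699438 (minus strand) for Apoe. Capitals mark matches, on either strand, to 2 forms of the hepatocyte nuclear factor 4 (HNF4) site (CAAAGTCCA, and the same with an extra G after AAAG), the palindromic HNF1 site or the TATA box (TATAAA).
Apoa1: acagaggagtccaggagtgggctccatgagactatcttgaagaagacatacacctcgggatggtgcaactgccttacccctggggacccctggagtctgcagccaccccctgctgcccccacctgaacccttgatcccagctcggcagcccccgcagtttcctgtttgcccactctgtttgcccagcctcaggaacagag
Apob: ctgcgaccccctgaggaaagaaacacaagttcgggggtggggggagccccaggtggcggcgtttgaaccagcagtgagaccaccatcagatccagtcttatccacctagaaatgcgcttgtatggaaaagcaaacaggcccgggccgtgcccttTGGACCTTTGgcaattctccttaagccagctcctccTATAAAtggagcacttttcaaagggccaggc
Apod: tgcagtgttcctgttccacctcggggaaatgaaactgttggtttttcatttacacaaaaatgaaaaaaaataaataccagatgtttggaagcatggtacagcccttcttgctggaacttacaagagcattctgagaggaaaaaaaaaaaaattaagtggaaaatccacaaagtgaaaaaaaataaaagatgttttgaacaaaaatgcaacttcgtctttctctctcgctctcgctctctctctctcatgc
Apoe: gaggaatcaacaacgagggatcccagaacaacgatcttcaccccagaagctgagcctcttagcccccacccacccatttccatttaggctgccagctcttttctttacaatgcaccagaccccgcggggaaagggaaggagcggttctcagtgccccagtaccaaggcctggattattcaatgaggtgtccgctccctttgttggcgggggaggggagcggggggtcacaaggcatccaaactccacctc
Apob held the HNF4 form with the extra G (on the minus strand, from -96 to -87 of the RefSeq start site) and a TATA box (-60 to -55), which do not overlap. The other 3 windows held none of these letters, which says nothing about the factors. Further windows were searched and are not shown. Among them a window of Apoa2 held a TATA match (-212 to -207). Another window of Apoe, inside the annotated gene, held TATA matches on both strands. No HNF4 or HNF1 match was found in the windows not shown, and that of Apoh held no match at all. Of 32851 mouse promoters, searched over the 250 bases before the start, 0.426% held either HNF4 form, 0.0426% the form seen in Apob, 0.00913% the HNF1 form and 12.4% the TATA form. GC content was 60.5% for Apoa1, 55.7% for Apob, 36.4% for Apod and 57.2% for Apoe, against a median of 52.4% over all promoters.

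The deposited values are gene counts that the authors divided by a size factor per library (normalized counts). In remaining tissue 1 read was worth 0.142 normalized counts, an estimate, against 9.05 in replicate 1 and 5.06 in replicate 2 of isolated mitochondria. Reads of nuclear genes outside copies of mitochondrial DNA numbered an estimated 11988495 and 11967537 in remaining tissue, and 100924 and 181152 in isolated mitochondria, where 95.3% and 94.1% of reads fell on mitochondrially encoded genes. A muscle origin was visible in all 4 libraries, since each of 11 myofibre markers such as Acta1 and Myh4 was above 0 in every one.

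Apoa1 encodes the main protein of HDL and activates cholesterol esterification on the particle. In remaining tissue it had 18 normalized counts in replicate 1 and 3 in replicate 2, and in isolated mitochondria 1493 and 197. Both libraries of isolated mitochondria lay above both of remaining tissue, and replicate 1 was the higher library within each fraction. The means were 10.5 ± 10.6 normalized counts and 845 ± 916 (SD, n = 2 each), so that the spread within each fraction was as large as its mean. In reads this was an estimated 127 and 21 against 165 and 39. The labels do not say that libraries with the same number belong together, and ratios within a number are given as a description. For Apoa1 the ratio of isolated mitochondria to remaining tissue was 82.9 in replicate 1 and 65.7 in replicate 2, and with the numbers crossed 498 (mitochondria 1 to tissue 2) and 10.9 (mitochondria 2 to tissue 1).

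Apoa2, the next most abundant protein of HDL, followed the same order. Its normalized counts were 12 and 3 in remaining tissue and 986 and 162 in isolated mitochondria (7.5 ± 6.36 and 574 ± 583, SD, n = 2 each). The fractions did not overlap, and the ratio between them was 82.2 in replicate 1 and 54.0 in replicate 2.

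Apob encodes the structural protein of chylomicrons, VLDL and LDL, and has the longest transcript of the members (13934 nt). Normalized counts were 57 and 8 in remaining tissue and 1955 and 293 in isolated mitochondria, from an estimated 402 and 56 and from 216 and 58 reads. Replicate 1 was again the higher library in both fractions. The ratio between fractions was 34.3 in replicate 1 and 36.6 in replicate 2, and 244 and 5.14 with the numbers crossed.

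Apoc3, an inhibitor of lipoprotein lipase, and Apoh (beta-2-glycoprotein I, which binds acidic phospholipids) were the members with fewest reads over the 4 libraries. Apoc3 had 2 and 1 normalized counts in remaining tissue and 136 and 5 in isolated mitochondria, the last of them a single read. Its ratio in replicate 2 was 5.09, with an exact 95% counting interval of 0.113 to 39.7. Apoh had 4 and 1 normalized counts in remaining tissue and 271 and 51 in isolated mitochondria (30 and 10 reads). For Apoh both libraries of isolated mitochondria were far above remaining tissue, by 67.8-fold in replicate 1 and 51.0-fold in replicate 2.

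Among the widely expressed members, Apoc1 resembled the liver-restricted ones. Apoc1, a small protein of VLDL and HDL that hinders uptake of remnant particles, had 7 and 2 normalized counts in remaining tissue and 380 and 71 in isolated mitochondria (42 and 14 reads). Replicate 1 was higher in both fractions, and the ratio between fractions was 54.3 in replicate 1 and 35.5 in replicate 2.

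Apoe, the ligand through which the LDL receptor and Lrp1 take up remnants, had the highest level per kb of transcript of the members in every library. It had 124 and 149 normalized counts in remaining tissue and 4977 and 2585 in isolated mitochondria, from an estimated 874 and 1050 and from 550 and 511 reads (136.5 ± 17.7 and 3781 ± 1691, SD, n = 2 each). Unlike in the liver-restricted members, replicate 1 was not the higher library of remaining tissue. The ratio between fractions was 40.1 in replicate 1 and 17.3 in replicate 2, although the 2 libraries of isolated mitochondria held similar numbers of reads of it.

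Apod, a lipocalin that binds small hydrophobic ligands, differed least between the fractions. Normalized counts were 38 and 36 in remaining tissue and 271 and 157 in isolated mitochondria (37.0 ± 1.41 and 214 ± 80.6, SD, n = 2 each). The libraries of isolated mitochondria held 30 and 31 reads of it, so that the difference between their normalized counts is that between the scaling factors. The ratio between fractions was 7.13 in replicate 1 and 4.36 in replicate 2.

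**Figure D1:**
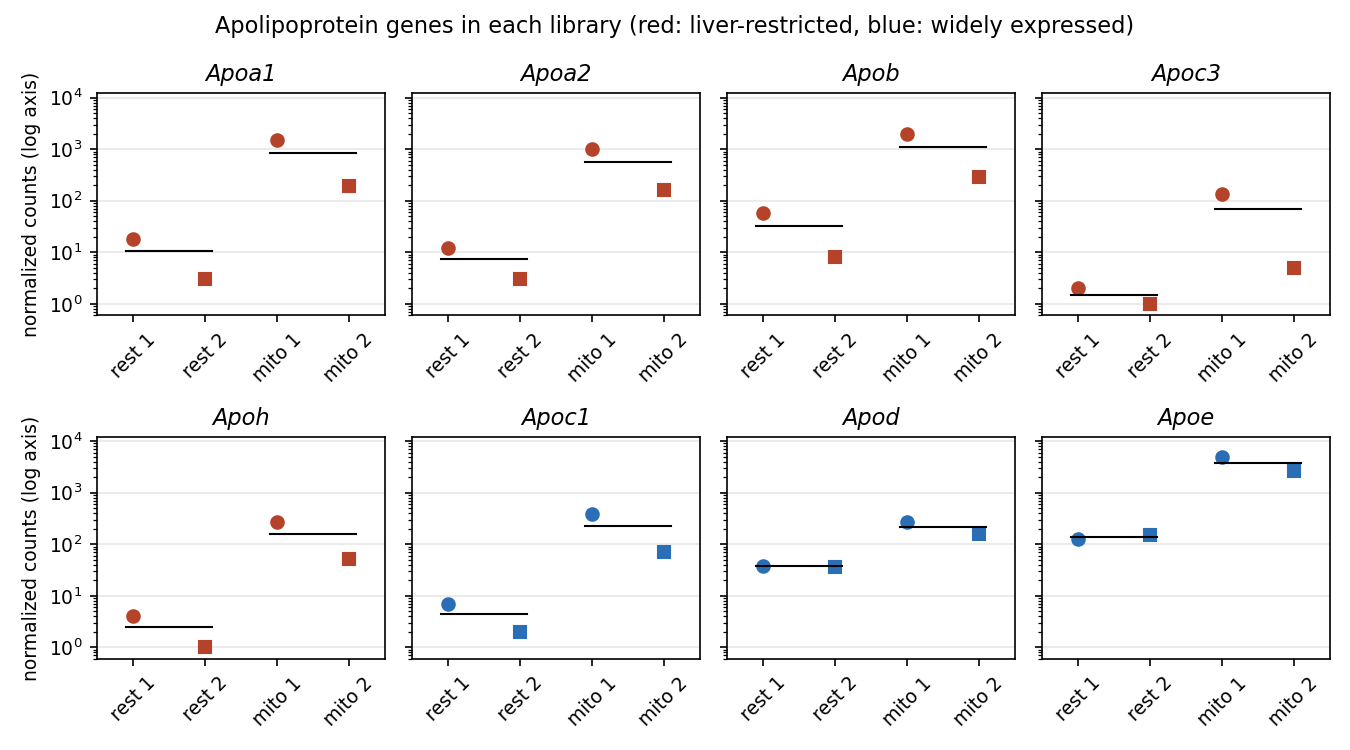
Normalized counts (log axis) of the 8 members in each library, with circles for replicate 1, squares for replicate 2 and lines at the mean of each fraction (rest, remaining tissue; mito, isolated mitochondria). In the 5 liver-restricted members and Apoc1 replicate 1 lies above replicate 2 in both fractions, while Apod (38 and 36) and Apoe (124 and 149) show no such excess in remaining tissue; the direction between the fractions turns if each library is scaled to its own total.

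On the scale of log2(normalized count + 1) all 8 members were higher in isolated mitochondria with the deposited scaling. All 8 were lower when each library was scaled to its own total, in which mitochondrial transcripts dominate (total scaling). Under total scaling only 2 of them, Apod and Apoe, had an adjusted p under 0.05 (limma). With the deposited scaling the median difference was 5.23 over the liver-restricted and 4.71 over the widely expressed members. It was -0.44 over all 6916 genes tested (mean of at least 20 over the libraries). The largest was that of Apoa1 (5.96, SE 1.30) and the smallest that of Apod (2.45, SE 0.35), with Apoc3 between them and the least certain (3.55, SE 2.28). Total scaling moved the median of all genes to -7.27, quantile normalization to -0.31, the upper quartile to -0.89 and the total of nuclear genes without copies to 0.43. Relative to that median the liver-restricted members lay at 5.68 with the deposited scaling and at 6.26, 6.13, 5.75 and 5.55 with these, and the widely expressed ones at 5.15 and at 5.09, 4.88, 5.14 and 5.17.

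Both libraries of isolated mitochondria lay above both of remaining tissue for 8 of 8 members, and for 25.5% of all 6916 genes tested. An adjusted p under 0.05 (limma, Benjamini-Hochberg) in that direction was found for 5 of 8 (Apoa2, Apoh, Apoc1, Apod and Apoe). The share of all genes tested was 7.32%. In the lower direction it was found for 0 of 8 members and for 9.3% of all genes tested. Nothing is read from these counts, since the members were taken from this contrast. All 8 passed the minimum mean, but the means of Apoa1, Apoa2, Apoc1, Apoc3 and Apoh in remaining tissue were under 20, so that these 5 passed only through isolated mitochondria. Of 6862 nuclear genes tested, 34 had a larger difference than Apoa1, 41 than Apoa2, 73 than Apoh, 86 than Apoc1, 90 than Apob, 116 than Apoe, 201 than Apoc3 and 416 than Apod. Without isolated mitochondria replicate 1 the median difference was 4.04 for the liver-restricted and 3.88 for the widely expressed members.

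Per kb of the longest transcript, the order of levels differed between the fractions. In isolated mitochondria Apoe led (2686 ± 1201 normalized counts per kb, SD, n = 2), followed by Apoa2 (1108 ± 1125), Apoa1 (817 ± 886), Apoc1 (424 ± 411), Apoh (135 ± 131), Apod (103 ± 38.9), Apoc3 (99.4 ± 131) and Apob (80.7 ± 84.3). Neighbours in this order overlapped in the ranges of their libraries, Apoe and Apoa2 only at the edge (1836 to 3535 and 313 to 1903). In remaining tissue Apoe (96.9 ± 12.5) stood clear of Apod (17.8 ± 0.68), and Apod was level with Apoa2 (14.5 ± 12.3) and Apoa1 (10.1 ± 10.3) within their spread. Apoc1 (8.46 ± 6.65), Apob (2.33 ± 2.49), Apoc3 (2.12 ± 1.00) and Apoh (2.10 ± 1.78) closed that order.

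Of the nuclear reads, copies of mitochondrial DNA left out, the 5 liver-restricted members together held 54.7 ppm in remaining tissue replicate 1 (95% Wilson interval 50.7 to 59.1) and 9.36 ppm (7.78 to 11.3) in replicate 2. In isolated mitochondria they held 5301 ppm (4871 to 5768) and 773 ppm (655 to 912). The 3 widely expressed members held 99.3 and 110.1 ppm in remaining tissue, and 6163 and 3069 ppm in isolated mitochondria. These intervals cover counting error only. The liver-restricted sum was higher in replicate 1 of both fractions, and in remaining tissue the widely expressed sum was not.

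The ratio of replicate 1 to replicate 2 set the members apart. In remaining tissue it was 7.13 for Apob, 6.0 for Apoa1, 4.0 for Apoa2 and Apoh, 3.5 for Apoc1 and 2.0 for Apoc3, and in isolated mitochondria 6.67, 7.58, 6.09, 5.31, 5.35 and 27.2 in the same order. Rounding of the deposited values left wide limits for the lowest of these in remaining tissue (1.0 to 5.0 for Apoc3 and 2.33 to 9.0 for Apoh), and that of Apoc3 in isolated mitochondria rested on a single read in replicate 2. Apod (1.06 in remaining tissue, 1.73 in isolated mitochondria) and Apoe (0.832 and 1.93) showed no such excess in remaining tissue. A ratio of at least 2 in both fractions was found in 6 of the 8 members, the 5 liver-restricted ones and Apoc1. It was found in 1.17% (75) of the 6404 genes tested that were above 0 in all libraries. Replicate 1 was the higher library in both fractions for 7 of 8 members (not Apoe) and for 24% of those genes. Nothing is read from these counts either, as the replicates were part of the choice.

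Markers of hepatocytes moved with these members in the same libraries. Of 20 hepatocyte markers, 15 were among the 75 genes. Their summed normalized counts were 469 and 199 in remaining tissue and 20178 and 4195 in isolated mitochondria. The median ratio of replicate 1 to replicate 2 over the 19 markers above 0 everywhere was 4.00 in remaining tissue and 6.11 in isolated mitochondria, against 4.00 and 6.67 for the liver-restricted members and 1.02 and 0.90 for all genes tested above 0. Replicate 1 was higher for 16 of the 19 in remaining tissue and for 19 of 19 in isolated mitochondria. The exceptions in remaining tissue were Trf (0.914), which encodes transferrin, Hp (0.769), which encodes haptoglobin, and Cyp2e1 (0.586), an enzyme of drug and ethanol oxidation. Whether hepatocyte RNA had a part in the values of the members was not tested, and in bulk RNA fewer cells of a type and less RNA per cell cannot be told apart.

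**Figure D2:**
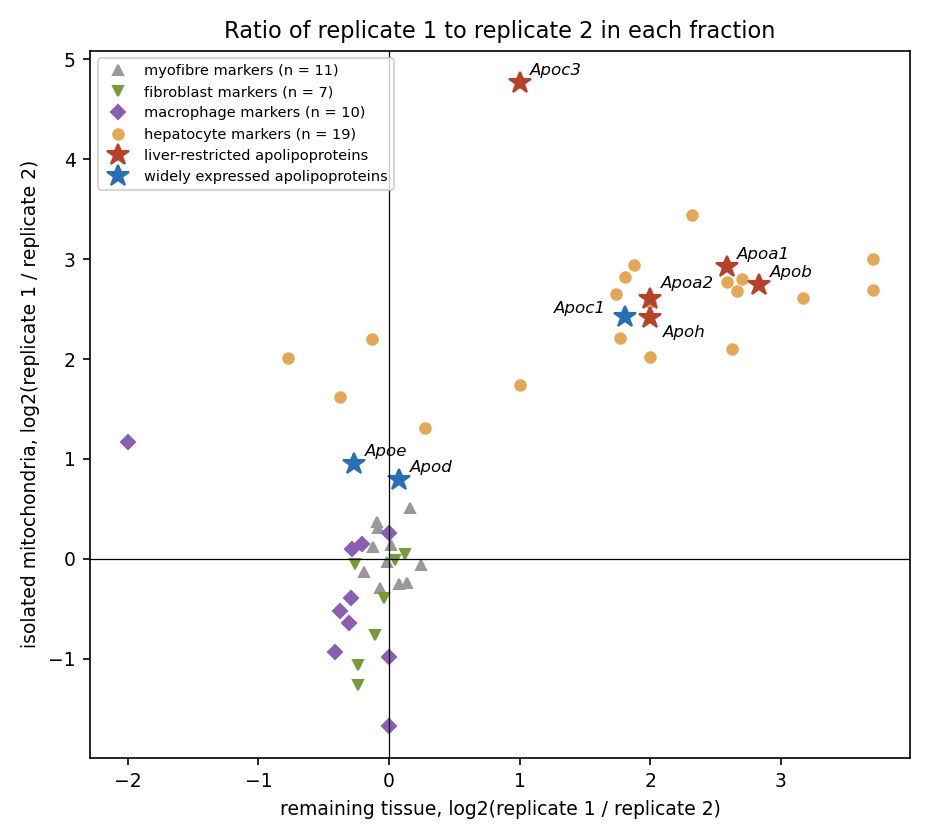
Log2 ratio of replicate 1 to replicate 2 in remaining tissue (horizontal) and in isolated mitochondria (vertical), one symbol per gene above 0 in all libraries. The 5 liver-restricted apolipoproteins and Apoc1 lie in the upper right with most hepatocyte markers, and Apod and Apoe lie near the vertical line at 0, above the myofibre and fibroblast markers and all but 1 of the macrophage markers (Cd68, at a ratio of 2.25 in isolated mitochondria).

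The members were set against Alb, which encodes albumin (normalized counts of 185 and 30 in remaining tissue and of 6986 and 1629 in isolated mitochondria). The summed normalized counts of the liver-restricted members moved as widely as Alb, at 93 and 16 in remaining tissue and 4841 and 708 in isolated mitochondria. As a percent of Alb this sum varied far less. It was 50.3% and 53.3% of Alb in remaining tissue and 69.3% and 43.5% in isolated mitochondria, a 1.60-fold range. Apob lay between 18.0% and 30.8% of Alb, Apoh between 2.16% and 3.88%, Apoa2 between 6.49% and 14.1%, and Apoa1 between 9.73% and 21.4%. Apoc1 kept to the same band width, from 3.78% to 6.67%, and Apoc3, at few reads, ran from 0.307% to 3.33%. In contrast, Apod was 20.5% and 120% of Alb in remaining tissue and 3.88% and 9.64% in isolated mitochondria, a 30.9-fold range. Apoe was 67.0% and 497% in remaining tissue and 71.2% and 159% in isolated mitochondria, a 7.41-fold range. In replicate 1 Apoe thus had nearly the same ratio to Alb in both fractions, and in replicate 2 it did not.

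**Figure D3:**
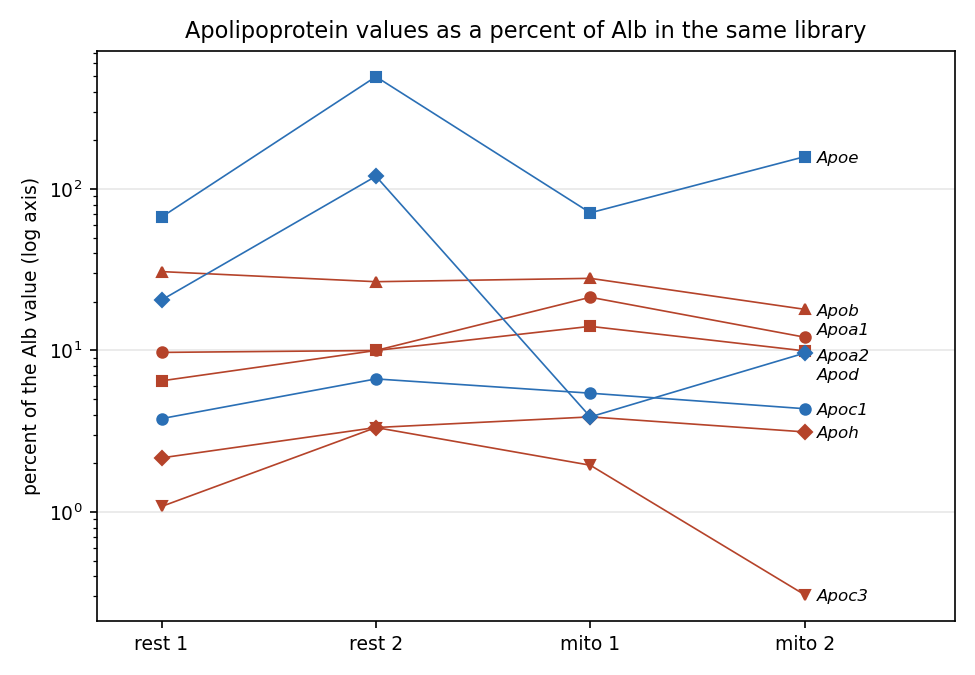
Each member as a percent of the Alb value of the same library (log axis), red for liver-restricted and blue for widely expressed members (rest, remaining tissue; mito, isolated mitochondria). Lines of Apob, Apoa1, Apoa2, Apoh and Apoc1 run nearly level, Apoc3 drops to 0.307% where it had 1 read, and Apod and Apoe peak in remaining tissue replicate 2 (120% and 497%).

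The nearest profiles over the 4 libraries (Euclidean distance on the log2 scale, 6871 candidate genes) were those of liver genes for the liver-restricted mean and for Apoc1. For the former they were Mup3 (distance 0.34), Ahsg (0.43), Fgb (0.49), Ttr (0.69) and Ass1 (0.82). For Apoc1 they were Fgg (0.69), Hpx (0.78), Ass1 (0.82), Serpinc1 (0.86) and Gsta3 (0.86). Mup3 belongs to a family of near-identical genes, so that its counts are uncertain. The nearest to Apod were Plau (0.37), Cep295 (0.43), Brpf1 (0.48), Gpx1 (0.52) and Casc3 (0.58), a mixed set led by a secreted protease. Apoe had no close neighbour, with the complement gene C3 at 1.65, the collagen VI gene Col6a2 at 1.87, Eef1a1 at 2.05, Dcn at 2.25 and Col6a3 at 2.29. The distance uses level as well as shape, and the points share their libraries.

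The same fit across all genes was used for other genes of lipoprotein metabolism, which were listed by function. Of 22 further apolipoprotein genes, 7 were in the table and 3 were tested. Apoa4, an apolipoprotein of chylomicrons made by enterocytes and, in mice, by hepatocytes, rose (limma, log2 difference 6.86, SE 1.23, adjusted p = 0.0378). Both libraries of remaining tissue listed it at 0, and its normalized counts in isolated mitochondria were 199 and 66 (22 and 13 reads), so that its mean was at least 265-fold higher against the rounding limit of 0.5. It passed the minimum mean only through isolated mitochondria. The call was lost with a pseudocount of 0.5 (adjusted p = 0.0605) and under total scaling (adjusted p = 0.282). Clu, an apolipoprotein and extracellular chaperone, did not pass (0.38, adjusted p = 0.729), nor did Apoo, a subunit of the mitochondrial MICOS complex that organizes cristae (-3.83, adjusted p = 0.174). With DESeq2 the list had 1 gene higher and 1 lower. The median of the list was 0.38, and it was -0.64 and 1.41 without isolated mitochondria replicates 1 and 2. Apoa5, which promotes lipolysis by lipoprotein lipase, was under the minimum mean with 2 and 1 normalized counts in remaining tissue and 45 and 20 in isolated mitochondria.

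Genes of particle assembly and lipolysis held 1 call. Of 16 listed, 10 were in the table and 5 were tested, of which 0 were higher and 1 lower, with a median log2 difference of 0.47. An unadjusted p under 0.05 (limma) was found for 3 of the 5, and for 2557 of all 6916 genes tested. The minimum mean was passed only through isolated mitochondria by 1 of the 5. Surf4, a cargo receptor for secretion from the endoplasmic reticulum, was lower by 1.49 (SE 0.28, adjusted p = 0.0413). This call was kept by 9 of 16 alternatives and lost without remaining tissue replicate 1 (-1.50, adjusted p = 0.566) or replicate 2 (-1.47, adjusted p = 0.583). Lpl, the lipase through which muscle obtains fatty acids from lipoproteins, had 626 and 623 normalized counts in remaining tissue and 769 and 976 in isolated mitochondria (0.47, SE 0.20, adjusted p = 0.170). Pltp, which transfers phospholipids between particles (1.77, adjusted p = 0.113), and Sar1b, a GTPase of the vesicles that export chylomicrons (-1.98, adjusted p = 0.185), did not pass either. With edgeR 2 of the 5 were higher and 1 lower, and with DESeq2 3 were higher and 0 lower. The median of the list was 0.64 and 0.30 without isolated mitochondria replicates 1 and 2.

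Receptors and sterol exporters went both ways. Of 15, 12 were in the table and 9 were tested, of which 1 was higher and 2 were lower (median -0.63). Lrp1, the receptor that clears Apoe-bearing remnants, had 393 and 410 normalized counts in remaining tissue and 2154 and 2347 in isolated mitochondria. It was higher by 2.48 (SE 0.16, adjusted p = 0.00780, limma) in 15 of 16 alternatives and at -4.41 under total scaling. Vldlr, the receptor for triglyceride-rich particles in muscle, went from 676 and 646 to 136 and 152, and fell by 2.19 on the log2 scale (SE 0.18, adjusted p = 0.0114), as in 16 of 16 alternatives. Sorl1, a sorting receptor, was lower by 1.23 (SE 0.23, adjusted p = 0.0427), which was lost in 8 of 16 alternatives, among them leaving out isolated mitochondria replicate 2 (-1.17, adjusted p = 0.0514) and remaining tissue replicate 1 (-1.08, adjusted p = 0.625) or replicate 2 (-1.37, adjusted p = 0.418). Cd36, the fatty acid transporter of muscle, was at -0.76 (adjusted p = 0.151). For Lrp1, Vldlr and Sorl1 the replicates of each fraction lay close together, and no such excess in replicate 1 was seen. The median of the list was -0.68 and -0.53 without isolated mitochondria replicates 1 and 2. Without remaining tissue replicates 1 and 2 it was -0.69 and -0.56.

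Transcription factors that act on apolipoprotein and lipid genes had no call. Of 15, 11 were in the table and 8 were tested, and 0 passed in either direction (limma, with edgeR also 0 and with DESeq2 1 higher and 1 lower). An unadjusted p under 0.05 (limma) was found for 2 of the 8, and for 2557 of all 6916 genes tested. The minimum mean was passed only through isolated mitochondria by 3 of the 8. The median log2 difference of the 8 was 0.08, and it was -0.42 and 0.33 without isolated mitochondria replicates 1 and 2. Rxra, the partner of many nuclear receptors, was at -0.51 (adjusted p = 0.224), and Srebf1, a regulator of lipid synthesis, at -1.86 (adjusted p = 0.119). Nr1h2 was at -0.47 (adjusted p = 0.300, limma) and Cebpa in the other direction at 1.87 (adjusted p = 0.109). Hnf4a, a defining factor of hepatocytes, had 1 and 0 normalized counts in remaining tissue and 109 and 0 in isolated mitochondria, so that it was seen in replicate 1 of the latter alone (2.89, SE 6.98, adjusted p = 0.782). It was named after its values were seen.

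**Figure D4:**
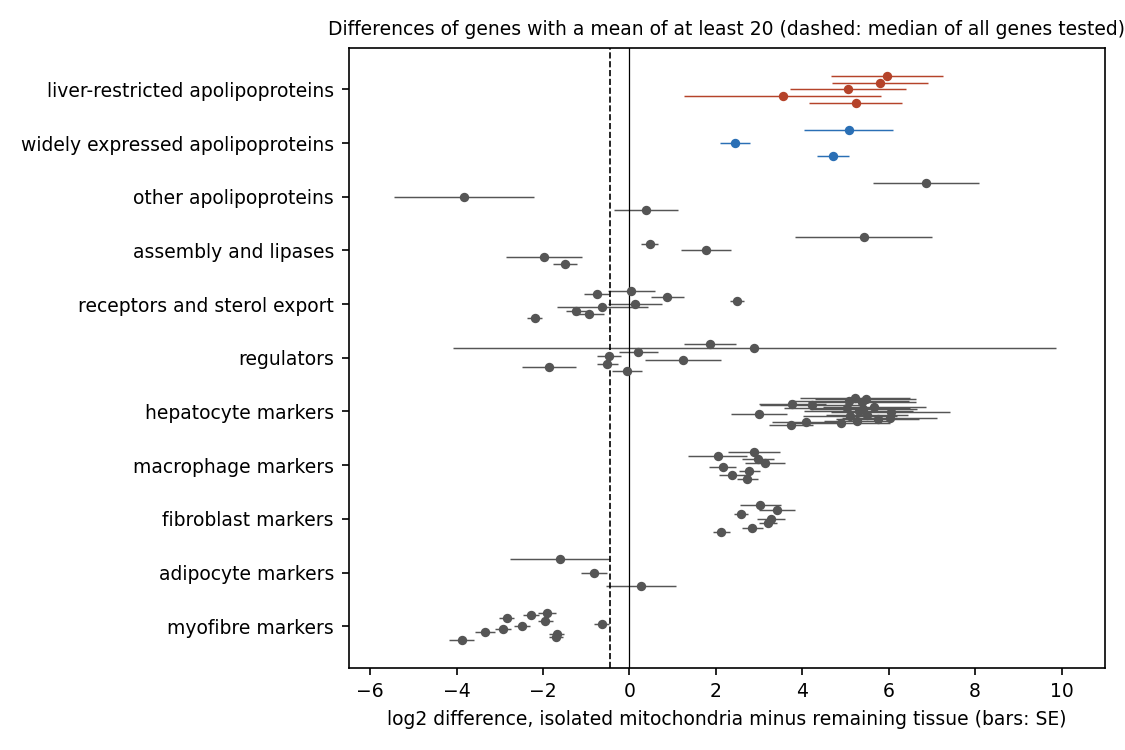
Log2 differences between isolated mitochondria and remaining tissue (points, 1 gene each; bars, SE) by list, for genes with a mean of at least 20, with a dashed line at the median of all genes tested (-0.44). Liver-restricted apolipoproteins and hepatocyte markers span a similar range, and the other lipoprotein lists have genes on both sides of 0; under total scaling the medians of the members and of hepatocyte, macrophage and fibroblast markers turn negative.

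Cell type markers were tested in the same fit. All 20 hepatocyte markers were in the table with a median difference of 5.24, and 8 of them rose (limma). An unadjusted p under 0.05 was found for 20 of 20, and for 2557 of all 6916 genes tested. The mean in remaining tissue was under 20 for 16 of the 20 markers, which were therefore tested only because they were high in isolated mitochondria. The other 4 were Alb, Trf, Vtn and Cyp2e1, of which Alb did not pass. The number of the 20 that rose was 20 with edgeR and with DESeq2 and 0 with a minimum mean of 5. Their median was 3.92 and 6.53 without isolated mitochondria replicates 1 and 2. Without remaining tissue replicates 1 and 2 it was 6.31 and 4.20. Alb itself was at 5.47 (SE 1.17, adjusted p = 0.0509), Trf rose by 4.08 (adjusted p = 0.0427), Serpina3k, a serpin of liver, by 5.74 (adjusted p = 0.0339) and Serpina1c, an alpha-1-antitrypsin gene with near-identical copies, by 6.02 (adjusted p = 0.0384). Under total scaling 0 rose and 4 fell.

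Markers of macrophages and fibroblasts, cells that make Apoe and Apod, were higher too, without an excess in replicate 1. Of 10 macrophage markers 8 were tested and 7 rose (limma, median 2.75), with sums of 163 and 197 normalized counts in remaining tissue and 1002 and 1279 in isolated mitochondria, and 0 of 10 had replicate 1 higher in both fractions. Lyz2, the lysozyme of macrophages, rose by 2.38 (SE 0.32, adjusted p = 0.0229). Without remaining tissue replicates 1 and 2, 4 and 5 of the 8 rose, and 4 of the 8 had passed the minimum mean only through isolated mitochondria. Of 7 fibroblast markers 7 rose (median 3.03), with sums of 2647 and 2807 and of 19681 and 30243, and 1 of 7 (Dcn) had replicate 1 higher in both fractions. Gsn, an actin-severing protein, rose by 3.21 (SE 0.21, adjusted p = 0.00780). Under total scaling all tested genes of both lists were lower. Whether these cells had a part in the values of Apoe and Apod was not tested. Myofibre markers went the other way, 10 of 11 being lower (median -2.28), with sums of 568921 and 549762 against 70600 and 62570.

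Markers of further cell types held few calls. Adipocyte markers (6 in the table, 3 tested, 0 called by limma, edgeR or DESeq2 and 0 at an unadjusted p under 0.05) summed to 197 and 475 normalized counts in remaining tissue and 144 and 242 in isolated mitochondria, higher in replicate 2 of both fractions. Retn, an adipokine gene with 2 and 13 normalized counts in remaining tissue, was listed at 0 in both libraries of isolated mitochondria. Since 1 read was worth 9.05 and 5.06 normalized counts there, nothing is read from this 0. Of 8 Schwann cell markers 6 were in the table and 1 was tested with 0 calls by these tools. Of 7 enterocyte markers Apoa4 alone was in the table. Of 6 red cell markers 2 were tested and 0 called by these tools, at sums of 166 and 177 in remaining tissue and 108 and 40 in isolated mitochondria. The median of the 2 was -1.68, and it was -2.85 and -0.50 without isolated mitochondria replicates 1 and 2. Of 5 cardiomyocyte markers 2 were in the table. Tnnt2, which passed the minimum mean only through isolated mitochondria, rose by 4.85 (limma, adjusted p = 0.0157) and Myh6 did not pass (1.81, adjusted p = 0.122), and both differences were negative under total scaling. Of 3 brown adipocyte markers Dio2 was tested, through isolated mitochondria alone. It did not pass (limma, 3.495, adjusted p = 0.117, with a call by edgeR and DESeq2). Of 5 neuron markers 3 were in the table and 1 was tested, through isolated mitochondria alone. Rbfox3 rose by 9.11 (limma, adjusted p = 0.00362), from 0 in both libraries of remaining tissue to 471 and 648 in isolated mitochondria.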

How the data were processed

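RNA of 4 libraries, 2 of isolated mitochondria and 2 of remaining tissue of mouse skeletal muscle, had been sequenced from 10 ng of total RNA with a stranded low-input kit. Trimmomatic 0.39, STAR 2.7.10a, featureCounts 2.0.2 and DESeq2 1.30.1 are named in the submitters' processing notes, and the strand setting of the counting was not given in the sources used here. The deposited signal is gene counts that the authors divided by a size factor and rounded, on GRCm38 (16472 genes, 16457 found in GENCODE M21). Whole reads were recovered in isolated mitochondria (99.95% of 10508 and 99.97% of 11660 low values within 0.5 of a multiple of the step) and estimated in remaining tissue (7.05 reads per normalized count), where a listed 0 stands for up to 3.53 reads. The test for genes with a mean of at least 20 was limma 3.58.1 on log2(normalized count + 1) (trend, two-sided, Benjamini-Hochberg, threshold 0.05) in R 4.3.3, which understates fold changes of low genes. The analysis was run on simulated data with the same dispersion for every gene, which does not cover the spread between replicates seen in the members. Alternatives were other scalings, filters, pseudocounts and variance models, a replicate block, edgeR 4.0.16 and DESeq2 1.42.0 on reads, and leaving out each library. List calls and list medians under the alternatives were added after seeing the data. Shared sequence was searched with BLAST 2.17.0. Members, lists and tests were chosen with earlier results of these data known. Named were the members, up to 4 genes of each list with the highest mean, any called gene where 5 or fewer were called, and the 5 nearest profiles. Hnf4a, Retn and genes given as exceptions within a list were named outside this rule, after their values were seen. The 17 nuclear copies of mitochondrial DNA were left out of nuclear totals.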

Additional observations from a re-analysis of the deposited data

How the results depend on the processing

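Against 506 genes higher and 643 lower in isolated mitochondria, the counts were 39 and 6686 under total scaling (each library to its own total), 1108 and 183 under nuclear scaling (each to its nuclear total, copies left out), 283 and 399 with a minimum mean of 5, 1106 and 871 with edgeR and 1404 and 877 with DESeq2. The number lower was also 1421 with the upper quartile, 384 after quantile normalization, 3026 with no filter and 374 without a trend. Leaving out each library in turn gave 296 to 1724 higher and 176 to 3198 lower. Higher calls made up 44.0% of all calls with the deposited scaling, 23.4% with the upper quartile, 55.1% after quantile normalization, 0.58% under total scaling, 85.8% under nuclear scaling and 55.9% with edgeR. Under total scaling the median log2 difference of the liver-restricted members turned from 5.23 to -1.01 and that of the widely expressed members from 4.71 to -2.18, and the members stood at -0.69 (Apoa1), -0.84 (Apoa2), -1.75 (Apob), -2.54 (Apoc3), -1.01 (Apoh), -1.43 (Apoc1), -4.41 (Apod) and -2.18 (Apoe), with Lrp1 at -4.41. The median of the widely expressed members was 5.6 under nuclear scaling, 3.58 with Apoc1 counted as liver-restricted and 3.88 to 5.18 when each library was left out, and that of the liver-restricted members 4.04 to 6.43. The causes were not tested. Of the 8 members 0 to 8 were called higher over the alternatives. With the replicate block 630 genes were higher and 1144 lower, 7 members and 20 hepatocyte markers were called, and the medians of the members stayed at 5.23 and 4.71. Same-numbered libraries share only a number by the labels, and their deviations correlated at 0.141 across the 6916 genes. Few nuclear reads in isolated mitochondria and rounding in remaining tissue limit the precision of Apoc3 and Apoh most.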
